A study of Mus musculus with 16 samples.

Results

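The genes described here are 10 regulators and products of the mouse trophoblast: Hand1, Cdx2, Elf5, Gata2, Gata3, Tfap2a, Tfap2c, Ascl2, Plac1 and Esx1. They were chosen by name, as known trophoblast genes and with earlier results of these data known. The choice was made from the 20325 gene names that 12 of the 13 RNA libraries share, and all 10 were found. Tfap2a and Tfap2c stand under their older names Tcfap2a and Tcfap2c in those 12 libraries. The study asked how the AP-1 subunit c-Jun pushes mouse embryonic stem cells (ESC) to differentiate, and how AP-1 factors act in reprogramming, using c-Jun, a dominant-negative c-Jun (c-JunDN) and the repressor Jdp2. All cells came from OG2 mice, which carry a green fluorescent reporter driven by Oct4, on a mixed 129SVJ, C57B6 and CBA background. ESC were at passage 5 and comprised a c-Jun TetOn line with doxycycline for 36 h, the same line without doxycycline, and wild-type (WT) ESC. Mouse embryonic fibroblasts (MEF) were at passage 2 and over-expressed c-Jun, c-JunDN, Jdp2, Oct4 or DR, or were WT. MEF on day 3 of reprogramming had all received Klf4, Sox2 and c-Myc (KSM) by virus, together with Oct4, c-JunDN, Jdp2 or DR. The labels do not spell out DR, which served as the control within MEF and within KSM. Each of these 13 groups is a single library, so no difference has a replicate check and no p-value is given. Neither control in ESC is labelled as given doxycycline, and the drug and c-Jun cannot be told apart there. The labels do not say whether the TetOn line is 1 clone.

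The trophoblast is the outer lineage of the blastocyst and forms most of the placenta. Its first cells depend on the homeobox factor Cdx2 and on TEAD and GATA factors, and its stem cells are kept by Cdx2, Elf5, Eomes, Tfap2c and FGF4 signalling. Hand1 drives their differentiation into giant cells, Ascl2 maintains the progenitors of the spongiotrophoblast, and Gcm1 starts the syncytial labyrinth. ESC derive from the inner cell mass and normally give rise to few trophoblast cells, because Oct4 represses Cdx2 and Elf5 is methylated.

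Libraries other than WT held between 1836122 and 3440917 expected counts, against 12173100 in WT ESC and 21415021 in WT MEF, and between 13541 and 15901 genes had a count. Both lower ends are Oct4 MEF, read only over the 19660 names it shares with the others, which hold 96.82% of its counts. Levels are given as CPM, counts scaled to a total of 1000000 with TMM library sizes, and a level of 3 counts lay between 0.835 and 1.50 CPM in the shallower libraries, against 0.267 CPM in WT ESC and 0.183 CPM in WT MEF. The introduced genes stood far above their controls in the libraries labelled with them, with Jun at 2015.1 CPM in induced ESC against 21.2 CPM in uninduced ESC. Genes that reached 5 CPM in either library of a pair count as measured there, and the calls higher and lower require a 2-fold ratio of CPM plus 1. Ratios carry 95% intervals that cover counting error only. In these bulk libraries, fewer cells of a type and less RNA per cell cannot be told apart.

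The summed level of these genes was highest after c-Jun induction in ESC. The 10 genes summed to 685.2 CPM in induced ESC, against 89.0 CPM in uninduced ESC and 111.4 CPM in WT ESC. In the MEF libraries the sum was 9.03 to 27.0 CPM, and in the KSM libraries it was 9.18 to 41.2 CPM. All 10 had a count in induced ESC, and 8 of them reached 5 CPM, against 3 in uninduced ESC and 3 in WT ESC. Without any filter on low values, 7 of the 10 genes were at least 2-fold higher in induced than in uninduced ESC and 0 were lower, beside 15.0% and 12.8% of all 20325 genes. With the filter, 8 were measured and the same count of 7 was higher, beside 21.5% of 11133 measured genes that were higher and 18.9% that were lower. A gene near 0 without doxycycline passes the filter only if it is high with it, so no weight is put on the filtered count. Over all measured genes, 2392 were higher and 2108 lower, against 2820 and 1550 with total counts and 3009 and 1141 on the TPM scale. The median log2 change over all 10 genes was 1.90, against 0.00 over all genes without the filter. As the 10 were chosen with earlier results of these data known, the shares of all genes are a background and not a test.

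**Figure D1:**
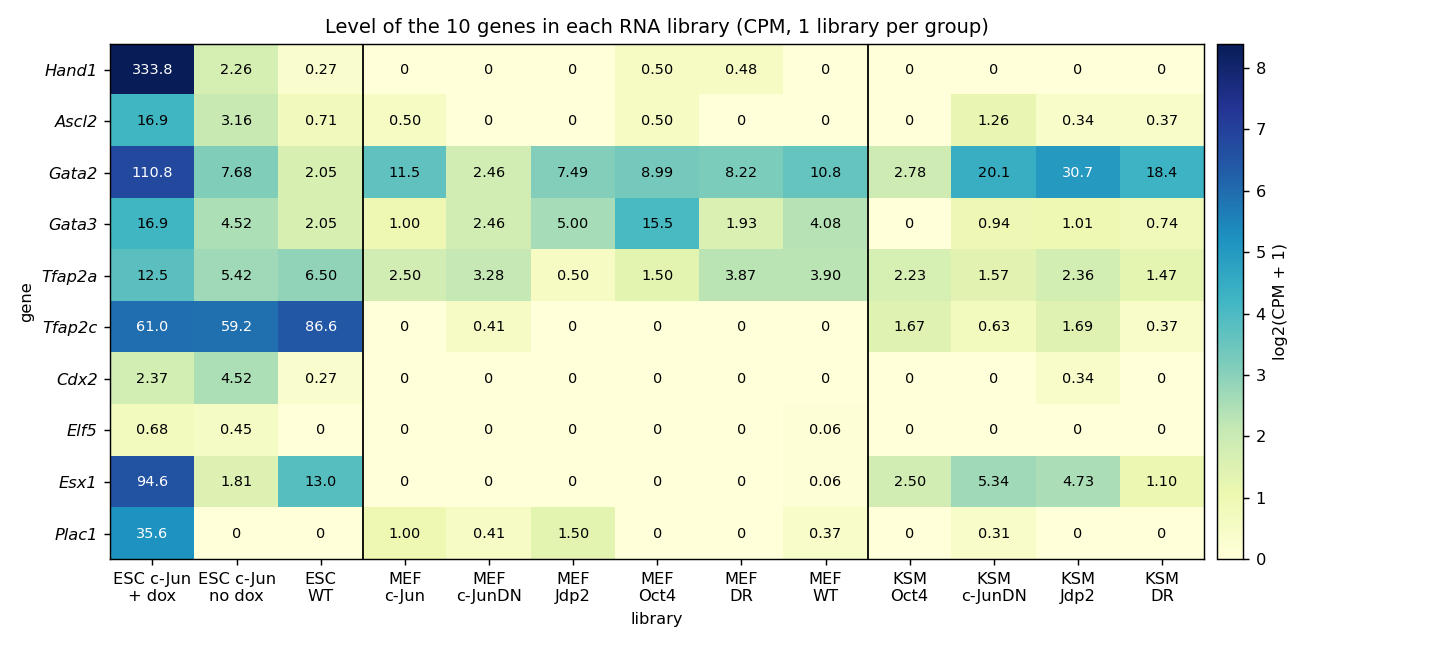
Level of each of the 10 genes (rows) in each of the 13 RNA libraries (columns), with the CPM printed in each cell and the colour showing log2(CPM + 1); black lines separate ESC, MEF and KSM libraries. The left column, induced ESC, holds the highest level of 8 of the genes. Among these, Elf5 rests on 2 counts there, and Gata3 did not differ from Oct4 MEF beyond counting error. Tfap2c is highest in WT ESC at 86.6 CPM and Cdx2 in uninduced ESC at 4.52 CPM.

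Hand1, a basic helix-loop-helix factor needed for trophoblast giant cells, had the largest ratio of those with a count in both c-Jun line libraries. It had 333.8 CPM (985 counts) in induced ESC, against 2.26 CPM (5 counts) in uninduced ESC and 0.267 CPM (3 counts) in WT ESC. No other library held more than 1 count of it. The ratio of induced to uninduced ESC was 147.8 (63.1 to 456.1), a log2 change of 6.68 that ranked 19 of 11133 measured genes. Against WT ESC, which rests on 3 counts, the ratio was 1249.0 (426.1 to 6067.1). Per length, Hand1 stood at 413.5 TPM in induced ESC, rank 361 of 20325 genes. Hand2, its relative in heart and limb, had 0 counts in induced and in uninduced ESC.

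Ascl2, the other basic helix-loop-helix gene among the 10, moved in the same direction at a much lower level. It had 16.9 CPM (50 counts) in induced ESC, against 3.16 CPM (7 counts) in uninduced ESC and 0.713 CPM (8 counts) in WT ESC. The ratio was 5.36 (2.42 to 14.0) against uninduced ESC and 23.8 (11.2 to 58.1) against WT ESC. Ascl2 is imprinted and expressed from the maternal copy in trophoblast. In MEF and KSM libraries it had at most 4 counts, the most being 1.26 CPM with KSM and c-JunDN.

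Gata2 and Gata3, zinc-finger factors that act together in trophoblast and activate placental lactogen genes, were both higher after induction. Gata2 had 110.8 CPM in induced ESC, against 7.68 CPM in uninduced ESC and 2.05 CPM in WT ESC. The 3 libraries stood in separate steps, with ratios of 14.4 (8.87 to 25.1) for induced over uninduced ESC and 3.75 (1.88 to 7.33) for uninduced over WT ESC. Gata3 had 16.9 CPM in induced ESC, against 4.52 CPM in uninduced ESC and 2.05 CPM in WT ESC. Its ratio was 3.75 (1.88 to 8.29) against uninduced and 8.27 (4.95 to 14.2) against WT ESC. Per length, Gata2 (80.3 TPM) stood above Gata3 (12.4 TPM) in induced ESC. Of the other GATA genes, Gata6, a primitive endoderm factor, had 24 counts in induced ESC, against 0 in uninduced ESC, and was at least 6.0-fold higher. Gata4 reached 4.07 CPM in induced ESC, against 0 in uninduced ESC, and stayed under the filter.

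The AP-2 genes did not move together. Tfap2c, which is shared by trophoblast stem cells and germ cells, had 61.0 CPM in induced ESC, against 59.2 CPM in uninduced ESC and 86.6 CPM in WT ESC. It was the 1 measured gene of the 10 within 2-fold of uninduced ESC, with a ratio of 1.03 (0.818 to 1.30). Before induction it was the most abundant of the 10 per length, at 38.2 TPM in uninduced ESC. Tfap2a, an AP-2 factor of trophectoderm, surface ectoderm and neural crest, had 12.5 CPM in induced ESC, against 5.42 CPM in uninduced ESC and 6.50 CPM in WT ESC. Its ratio of 2.31 (1.18 to 4.87) passed 2-fold against uninduced ESC, a call lost at a pseudocount of 5 (log2 0.75), but the ratio of 1.93 (1.26 to 2.90) against WT ESC did not.

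Cdx2 and Elf5, which hold the trophoblast stem cell state, stayed near the limit of detection. Cdx2 had 2.37 CPM (7 counts) in induced ESC, against 4.52 CPM (10 counts) in uninduced ESC and 0.267 CPM (3 counts) in WT ESC. The induced and uninduced libraries overlapped, with a ratio of 0.525 (0.170 to 1.53). Both stood above WT ESC, by 8.88 (2.03 to 53.2) in induced and 16.9 (4.35 to 95.6) in uninduced ESC, on the 3 counts of WT ESC and under the filter. Elf5 had 2 counts in induced ESC, 1 in uninduced ESC and 0 in WT ESC, which is at or under 3 counts in each, and no ratio is given. Cdx1, a relative of Cdx2 in the posterior embryo, was 4.97-fold lower, with 3.73 CPM in induced against 18.5 CPM in uninduced ESC.

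Esx1, an X-linked homeobox gene of the placental labyrinth, had 94.6 CPM (279 counts) in induced ESC, against 1.81 CPM (4 counts) in uninduced ESC and 13.0 CPM (146 counts) in WT ESC. It was 52.3-fold higher (20.2 to 193.4) than in uninduced ESC but 7.27-fold higher (5.93 to 8.94) than in WT ESC, since the controls themselves differed. Plac1, an X-linked gene for a secreted or membrane-bound placental protein, had 35.6 CPM (105 counts) in induced ESC, against 0 counts in uninduced ESC and 0 counts in WT ESC. It was at least 26.3-fold higher than in uninduced ESC and at least 133.1-fold higher than in WT ESC, taking 3 counts per library as the floor, so its change cannot be ranked against that of Hand1. Per length, Esx1 (139.2 TPM) and Plac1 (78.3 TPM) ranked 1199 and 2352 of 20325 genes in induced ESC.

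**Figure D2:**
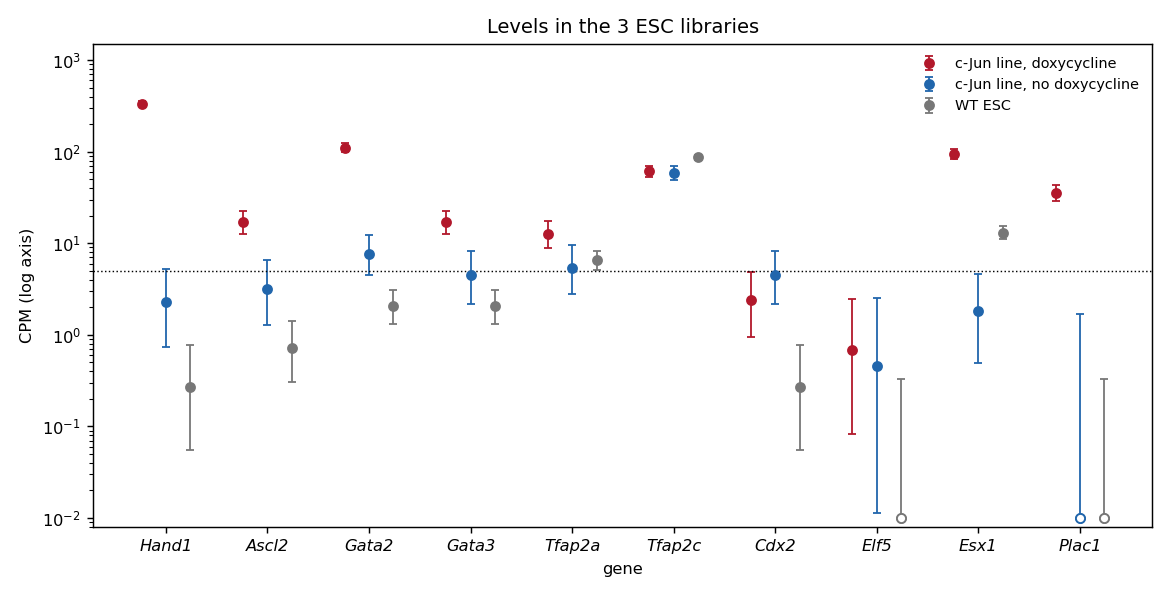
CPM (log axis) of the 10 genes in the 3 ESC libraries, with 95% counting intervals; open circles at 0.01 mark 0 counts, bars that reach the lower edge are cut there, and the dotted line is the 5 CPM filter. Induced ESC (red) stand apart from both controls for Hand1, Ascl2, Gata2, Gata3, Esx1 and Plac1, while Tfap2c lies between 59.2 and 86.6 CPM in all 3 libraries.

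The promoters of Esx1, Plac1 and Gata2 are printed because these genes differ in how silent they were before induction and because AP-1, the dimer that contains c-Jun, binds the letters TGANTCA. Windows of 300 bases, 250 before to 50 after each annotated start, come from RefSeq on GRCm38.p6. The table held 8 of the 10 genes, in 12 windows. TGANTCA, searched on both strands, was in 1 of the 8 genes, Esx1, and in 8.97% of 27025 genes. It was in 7.81% of all 32851 windows. The related site TGACGTCA, also read on both strands, was in 0 of the 8 genes and in 2.03% of 27025 genes. The 1 match overlaps no other motif searched, and it reads TGATTCA, while the usual AP-1 site has C or G at the N. A match is a description of letters and not a bound site, and the absence of one says nothing of sites elsewhere.

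The Esx1 window is chrX:137120277-137120576, minus strand, with the TGANTCA match in capitals beginning at base -145 from the start.
Esx1: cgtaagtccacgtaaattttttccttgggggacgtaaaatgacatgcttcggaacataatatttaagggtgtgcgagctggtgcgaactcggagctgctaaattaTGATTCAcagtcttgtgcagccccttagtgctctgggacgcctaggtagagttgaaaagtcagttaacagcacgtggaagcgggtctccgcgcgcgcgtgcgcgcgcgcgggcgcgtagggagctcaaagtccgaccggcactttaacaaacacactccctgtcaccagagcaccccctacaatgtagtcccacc
The windows of the pair of Plac1 starts are chrX:53240061-53240360 and chrX:53114356-53114655, minus strand, and hold no match.
Plac1 first start: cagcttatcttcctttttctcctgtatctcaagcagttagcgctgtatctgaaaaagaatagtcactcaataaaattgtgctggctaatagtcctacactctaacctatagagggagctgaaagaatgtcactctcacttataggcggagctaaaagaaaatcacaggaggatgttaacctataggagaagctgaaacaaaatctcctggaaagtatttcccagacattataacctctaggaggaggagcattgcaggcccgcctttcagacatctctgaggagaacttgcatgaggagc
Plac1 second start: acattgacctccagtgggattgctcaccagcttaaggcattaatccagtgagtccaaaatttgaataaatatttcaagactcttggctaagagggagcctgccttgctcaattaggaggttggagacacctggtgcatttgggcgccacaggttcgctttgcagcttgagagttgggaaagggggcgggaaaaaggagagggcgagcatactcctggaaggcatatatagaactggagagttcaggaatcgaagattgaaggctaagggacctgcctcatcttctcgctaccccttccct
The windows of the pair of Gata2 starts are chr6:88193641-88193940 and chr6:88198414-88198713, plus strand, and hold no match.
Gata2 first start: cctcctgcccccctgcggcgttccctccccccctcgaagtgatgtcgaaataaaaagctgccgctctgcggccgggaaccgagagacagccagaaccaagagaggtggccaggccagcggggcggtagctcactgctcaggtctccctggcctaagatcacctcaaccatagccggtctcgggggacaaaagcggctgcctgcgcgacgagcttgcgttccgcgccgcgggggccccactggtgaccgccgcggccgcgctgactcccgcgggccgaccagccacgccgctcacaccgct
Gata2 second start: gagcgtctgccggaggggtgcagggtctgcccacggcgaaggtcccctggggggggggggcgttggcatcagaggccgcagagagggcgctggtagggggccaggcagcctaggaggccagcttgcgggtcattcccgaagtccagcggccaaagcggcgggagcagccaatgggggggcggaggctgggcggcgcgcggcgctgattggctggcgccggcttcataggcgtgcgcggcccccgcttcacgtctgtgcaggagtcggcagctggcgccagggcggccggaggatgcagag
The Gata2 windows were rich in G and C, at 69.3% and 73.7%, while those of Plac1 held 42.7% and 49.7%. Esx1 stood between them at 54.0%, and the median of all windows was 52.7%.

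Other genes of the trophoblast were read through 4 lists, chosen by function and with earlier results of these data known. Their counts are given first without the filter, beside the 15.0% higher and 12.8% lower of all genes and their median log2 change of 0.00. Of 20 lineage transcription factors, 11 were higher and 3 lower in induced than in uninduced ESC, with a median of 1.22. With the filter, 17 were measured, and 10 were higher, 3 lower and 4 neither, with a median of 1.44 against -0.07 over all 11133 measured genes. Bhlhe40, a helix-loop-helix gene induced as trophoblast stem cells differentiate, had 144.0 CPM in induced ESC, against 8.58 CPM in uninduced ESC (log2 3.92). Gcm1, the master regulator of syncytiotrophoblast, had 24 counts in induced ESC against 0 in uninduced ESC, at least 6.0-fold higher. Eomes, Esrrb and Sox15 were lower. Eomes, needed for trophoblast stem cells and also for the primitive streak, had 3.39 CPM in induced ESC, against 31.6 CPM in uninduced ESC, and was 9.33-fold lower (4.79 to 20.3). Esrrb, shared by trophoblast stem cells and ESC, had 40.7 CPM in induced ESC against 495.6 CPM in uninduced ESC (log2 -3.58). Against WT ESC the same list had 6 higher, 3 lower and 7 neither of 16 measured, with a median of -0.15, beside 14.6% higher and 22.6% lower of 11359 genes. The 10 genes themselves had 6 higher and 0 lower of 8 measured against WT ESC.

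Of 17 signalling genes of the trophoblast, 9 were higher and 2 lower, with a median of 1.15 without the filter. With it, 16 were measured, of which 5 were neither (median 1.48). Igf2, the imprinted placental growth factor, had 243.3 CPM in induced ESC, against 7.23 CPM in uninduced ESC (log2 4.89). Wnt7b, a Wnt ligand of the chorion, had 54.6 CPM in induced ESC against 0.904 CPM, or 2 counts, in uninduced ESC (log2 4.87). Met, the receptor for hepatocyte growth factor, which the labyrinth needs, stood at 106.8 CPM in induced and 4.97 CPM in uninduced ESC (log2 4.17). Fgf4, the ligand that keeps trophoblast stem cells dividing, went the other way, with 10.8 CPM in induced ESC against 188.4 CPM in uninduced ESC and was 17.4-fold lower (12.1 to 25.7). Nodal was the other lower gene. Against WT ESC, 7 of 16 were higher and 6 lower (median 0.31), beside 14.6% and 22.6% of 11359 measured genes.

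Of 42 placental structural, secreted and membrane genes, 19 were higher and 2 lower, with a median of 0.79 without the filter. With it, 26 were measured, of which 5 were neither, with a median of 3.00, or 2.80 with genes at 0 counts put at their bound. Krt8 and Krt18, the keratin pair of simple epithelia and trophoblast, had 2182.8 CPM and 848.9 CPM in induced ESC, against 23.0 CPM and 15.8 CPM in uninduced ESC. Cited1, a transcriptional co-regulator needed for placental development, had 155.6 CPM in induced ESC against 0.904 CPM in uninduced ESC (2 counts), and Lgals1, a galectin, had 1082.4 CPM in induced ESC against 14.5 CPM in uninduced ESC. Keratins and Lgals1 are not restricted to trophoblast. The 2 lower genes were Psg23 and Plac9a, both of families with near-identical copies, whose counts are uncertain. Against WT ESC, 15 of 23 measured genes of this list were higher and 3 lower (median 2.90), beside 14.6% and 22.6% of 11359 genes. The hormone and late-cell genes did not appear. Prl3d1 and Prl3b1, the placental lactogens, Tpbpa and Tpbpb of the spongiotrophoblast, Ctsq of sinusoidal giant cells, the syncytins Syna and Synb, Prl7a1, Prl8a9 and Prl2c2 all had 0 counts in induced and in uninduced ESC. The floor of 3 counts is 1.02 CPM in induced ESC and 1.36 CPM in uninduced ESC. Prl2c2 belongs to a family of near-identical copies, and its counts are uncertain.

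Of 21 relatives of the 10 genes by sequence family or partnership, 4 were higher and 1 lower, with a median of 0.11 without the filter. With it, 9 were measured, and 3 were higher, 1 lower and 5 neither (median 0.85). Ets1, an ETS factor, had 68.5 CPM in induced ESC against 4.52 CPM in uninduced ESC (log2 3.65). Zfpm1, the GATA cofactor Fog1, had 20.7 CPM in induced ESC against 2.71 CPM in uninduced ESC (log2 2.55). The E proteins that pair with Hand1 and Ascl2, from Tcf3, Tcf4 and Tcf12, were within 2-fold, at log2 changes of 0.11, -0.12 and 0.89.

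**Figure D3:**
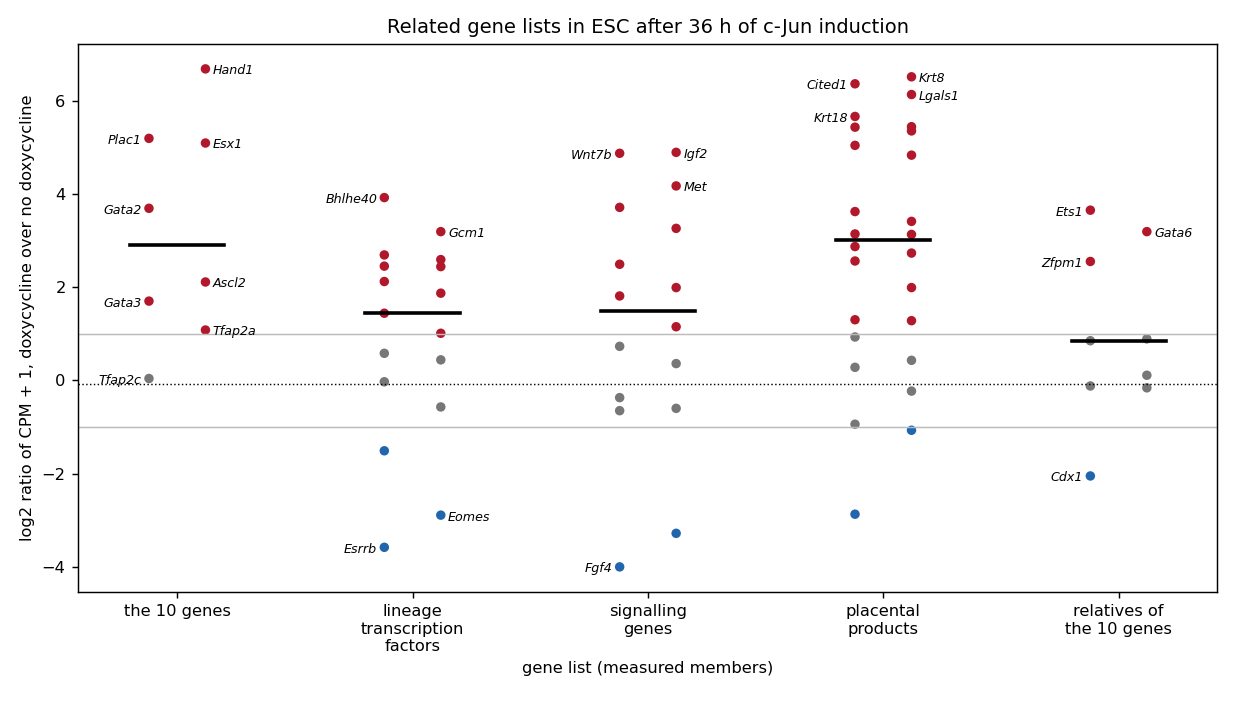
Log2 ratio of CPM + 1 of induced over uninduced ESC for the measured genes of each list, each point 1 gene (red higher, blue lower, grey neither at 2-fold), with the list median as a thick bar, the 2-fold limits in grey and the median of all measured genes, -0.07, dotted. Tfap2c lies near 0 among the 10 genes, and Esrrb, Eomes and Fgf4 lie lowest in their lists. Genes under the filter are not drawn. Without the filter the medians were lower, at 1.90 for the 10 genes, 1.22 for transcription factors, 1.15 for signalling genes, 0.79 for placental genes and 0.11 for relatives, against 0.00 over all genes.

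Markers of other cells were read in the same libraries. The summed level of 8 ESC markers was 1236.0 CPM in induced ESC, against 6513.7 CPM in uninduced and 5122.8 CPM in WT ESC, and all 8 stayed at 5 CPM or more in each. Of 5 keratinocyte and surface ectoderm markers, 2 reached 5 CPM in induced ESC, Krt6a at 95.2 CPM and Grhl3 at 89.8 CPM, and the list summed to 191.1 CPM, against 9.49 CPM in uninduced and 21.9 CPM in WT ESC. Under that level, Krt5 had 4.41 CPM in induced against 0 in uninduced ESC, and Krt14 had 1.69 CPM against 0. Trp63, which defines stratified epithelium, was at 0 in induced ESC and at 1 count (0.452 CPM) in uninduced ESC. Of 7 primitive streak and mesoderm markers, 0 reached 5 CPM in induced ESC, where T, Mesp1 and Evx1 had 0 counts, and the list summed to 3.05 CPM, against 16.7 CPM in uninduced and 4.01 CPM in WT ESC. The macrophage list summed to 110.8 CPM in induced ESC, against 11.3 CPM in uninduced and 23.9 CPM in WT ESC. Within it, Csf1r, a receptor that trophoblast also makes, had 74.6 CPM in induced against 0 in uninduced ESC. Cd68 had 36.3 CPM in induced against 11.3 CPM in uninduced ESC, and Lyz2 and Emr1 were at 0 in both. The fibroblast list summed to 1100.7 CPM in induced ESC, against 1589.4 CPM in uninduced and 4352.7 CPM in WT ESC, where 7 of 8 markers reached 5 CPM. Within it, Fn1 had 595.8 CPM in induced against 1565.5 CPM in uninduced ESC, while Col1a1 had 470.7 CPM in induced against 6.33 CPM in uninduced ESC, and 5 markers reached 5 CPM in induced against 3 in uninduced ESC. Neural crest markers summed to 10.8 CPM in induced, 27.6 CPM in uninduced and 15.3 CPM in WT ESC, and germ cell markers to 67.8 CPM in induced, 63.3 CPM in uninduced and 228.9 CPM in WT ESC. Of the neural crest markers, Foxd3 had 1.36 CPM in induced against 27.6 CPM in uninduced ESC, and Sox10 had 7.46 CPM in induced against 0 in uninduced ESC. Of the germ cell markers, Prdm14 had 3.39 CPM in induced against 29.8 CPM in uninduced ESC. Ddx4 had 36.6 CPM in induced against 15.4 CPM in uninduced ESC, Dazl 24.1 CPM against 15.4 CPM, and Dppa3 3.73 CPM against 2.71 CPM. Endothelial and blood markers summed to 56.3 CPM in induced, 113.9 CPM in uninduced and 254.7 CPM in WT ESC. Pecam1 had 24.4 CPM in induced against 107.1 CPM in uninduced ESC, Tek had 22.4 CPM in induced against 6.78 CPM in uninduced ESC, and Hba-a1 had 9.49 CPM in induced against 0 in uninduced ESC. The 5 markers of giant cells and spongiotrophoblast were at 0 in all 3 ESC libraries. Outside ESC, Prl2c2 had 1.95 CPM in KSM with Oct4, 7.54 CPM with c-JunDN and 12.8 CPM with Jdp2, against 5.52 CPM in KSM with DR. The part of these cell types in the levels of the 10 genes was not tested.

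Between the ESC controls, 4 of the 10 genes were measured, with 1 higher and 1 lower in uninduced than in WT ESC, beside 6.17% and 18.3% of 10895 genes. Gata2 was the higher gene, a call lost on the TPM scale, at a pseudocount of 5 and at 10 CPM, and Esx1 was the lower one, at 7.20-fold (2.75 to 26.8). The lines, their culture and their depth differ together here. Between WT MEF and WT ESC, Gata2 was higher and Tfap2c and Esx1 were lower in MEF among 4 measured genes, beside 24.3% higher and 29.4% lower of 11693 genes. Both shares of all genes were larger here than between the ESC controls. Gata2 had 10.8 CPM in WT MEF against 2.05 CPM in WT ESC, 5.26-fold higher (3.40 to 8.52). Tfap2c had 0 counts in WT MEF against 972 counts in WT ESC, at least 473.6-fold lower. Esx1 had 1 count in WT MEF against 146 counts in WT ESC, and was 213.4-fold lower in MEF (37.7 to 8486.0).

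In MEF at most 2 of the 10 genes reached the filter in any comparison with DR, Gata2 and Gata3. All 4 comparisons share the DR library. With c-Jun, the 1 measured gene, Gata2, stayed within 2-fold, with 11.5 CPM in c-Jun MEF against 8.22 CPM in DR MEF and a ratio of 1.40 (0.715 to 2.79). In that comparison 0 of the 10 were higher or lower, beside 7.75% and 9.54% of 11114 genes. Hand1 had 0 counts in c-Jun MEF and 1 count in DR MEF, and Plac1 had 2 counts in c-Jun MEF and 0 in DR MEF. The difference between the ESC and MEF responses was not tested.

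With c-JunDN, Gata2 had 2.46 CPM (6 counts) in c-JunDN MEF, against 8.22 CPM (17 counts) in DR MEF and 10.8 CPM (177 counts) in WT MEF. It was 3.34-fold lower (1.26 to 10.3) than in DR MEF. Gata2 was the 1 gene of the 10 measured there, with 1 lower and 0 higher, beside 2.71% and 3.25% of 11030 genes. It was 4.38-fold lower (1.97 to 12.1) than in WT MEF, where 10.9% of 11054 genes were lower. With a filter of 10 CPM or a pseudocount of 5 this call was lost. With Jdp2, Gata2 had 7.49 CPM in Jdp2 MEF against 8.22 CPM in DR MEF, with a ratio of 0.912 (0.424 to 1.94). Of the 10, 1 was measured there, with 0 higher and 0 lower, beside 5.81% and 6.32% of 11080 genes. Gata3, with 10 counts in Jdp2 MEF against 4 in DR MEF, stood at 5.00 CPM, just under the filter before rounding.

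With Oct4 in MEF, Gata3 was higher and Gata2 was not. Gata3 had 15.5 CPM (31 counts) in Oct4 MEF, against 1.93 CPM (4 counts) in DR MEF and 4.08 CPM (67 counts) in WT MEF. It was 8.00-fold higher (2.83 to 31.2) than in DR MEF and 3.79-fold higher (2.39 to 5.88) than in WT MEF. Among the 13 libraries this level was second to induced ESC (16.9 CPM), and these neighbours did not differ beyond their counting error. Gata2 had 8.99 CPM in Oct4 MEF against 8.22 CPM in DR MEF (ratio 1.09, 0.531 to 2.26). The count of 1 higher and 0 lower of 2 measured stands beside 11.5% and 10.1% of 11036 genes (1265 and 1119, against 1562 and 965 with total counts and 1861 and 893 on the TPM scale), and against WT MEF beside 14.3% higher. Gata3 passed the filter only through Oct4 MEF. The Oct4 library was counted on another annotation, on Ensembl genes, and 5 of the 10 genes, Gata3 among them, overlap an annotated long non-coding RNA on GRCm38.p6. Whether the counting used strand is not given in the sources used here. Macrophage markers summed to 218.1 CPM in Oct4 MEF, against 73.0 CPM in DR MEF and 57.5 CPM in WT MEF, and fibroblast markers to 22613.3 CPM in Oct4 MEF, against 46911.1 CPM in DR MEF and 78598.0 CPM in WT MEF. Of the fibroblast markers, Thy1 had 1019.8 CPM in Oct4 MEF against 391.7 CPM in DR MEF, and Postn had 5196.3 CPM against 1351.1 CPM. The other fibroblast markers were lower in Oct4 MEF than in DR MEF. The part of these marker lists in the Gata3 level was not tested.

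Gata2 was higher in KSM with DR than in DR MEF, a comparison in which the KSM factors, culture, vector and depth differ together. It had 18.4 CPM in KSM with DR against 8.22 CPM in DR MEF, 2.24-fold higher (1.27 to 4.14), and it was the 1 measured gene, beside 18.1% higher of 11342 genes. That call was lost on the TPM scale and at a pseudocount of 5. With Oct4 added to KSM, Gata2 was lower. It had 2.78 CPM (10 counts) in KSM with Oct4, against 18.4 CPM (50 counts) in KSM with DR, and was 6.61-fold lower (3.31 to 14.6). It was the 1 gene of the 10 measured, with 1 lower and 0 higher beside 6.67% and 4.65% of 10750 genes. The fibroblast list summed to 2303.6 CPM in KSM with Oct4 against 1819.6 CPM in KSM with DR. Within it, Fn1, Col1a2 and Col3a1 were higher with Oct4, while Col1a1, Thy1, Pdgfrb, Postn and Twist1 were lower. Fn1 had 973.3 CPM in KSM with Oct4 against 633.1 CPM in KSM with DR, and Col1a1 had 168.7 CPM against 392.0 CPM. Keratinocyte and surface ectoderm markers summed to 10.6 CPM in KSM with Oct4 against 64.4 CPM in KSM with DR, with 0 of 5 at 5 CPM against 3 of 5. Krt6a had 1.67 CPM in KSM with Oct4 against 32.4 CPM in KSM with DR, and Trp63 had 0.557 CPM (2 counts) against 0. Macrophage markers summed to 4.73 CPM in KSM with Oct4 against 15.8 CPM in KSM with DR, of which Cd68 gave 4.73 CPM and 15.1 CPM. Csf1r and Emr1 were at 0 in both, and Lyz2 was at 0 and 0.736 CPM. The part of these marker lists in the Gata2 level was not tested.

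With c-JunDN and Jdp2, which the study used in the place of Oct4, Gata2 stayed within 2-fold of the same DR library. It had 20.1 CPM in KSM with c-JunDN against 18.4 CPM in KSM with DR (ratio 1.09, 0.743 to 1.61). In KSM with Jdp2 it had 30.7 CPM, the second highest level of all libraries and 1.67 times the DR level (1.17 to 2.41), an interval above 1. Esx1 was detected in the KSM libraries and had at most 1 count in MEF. It had 5.34 CPM (17 counts) in KSM with c-JunDN, against 3 counts in KSM with DR, a ratio of 4.84 (1.40 to 25.8) whose call was lost at a pseudocount of 5 and at 10 CPM. In KSM with Jdp2 it had 4.73 CPM (14 counts), just under the filter, and in KSM with Oct4 it had 9 counts. With c-JunDN, 2 of the 10 were measured, with 1 higher and 0 lower, beside 1.81% and 1.62% of 10715 genes. Esx1, the higher gene, passed the filter only through the c-JunDN library. With Jdp2, 1 was measured, with 0 higher and 0 lower, beside 2.68% and 1.31% of 10763 genes. Hand1 had 0 counts in all 4 KSM libraries, and Plac1 had at most 1.

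**Figure D4:**
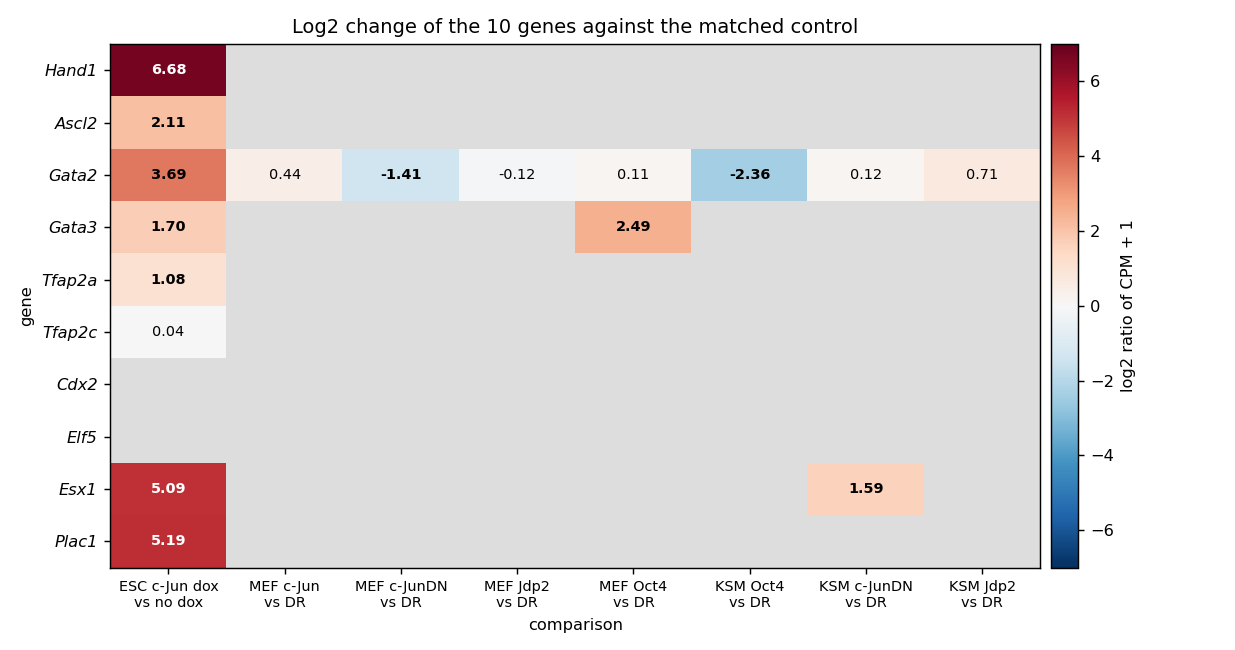
Log2 ratio of CPM + 1 of the 10 genes (rows) in the 8 comparisons with the matched control (columns), red for higher and blue for lower, with values in bold past 2-fold and grey cells for genes under 5 CPM in both libraries. The ESC column holds 7 values past 2-fold, while the other columns hold at most 2 measured genes.

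**Figure D5:**
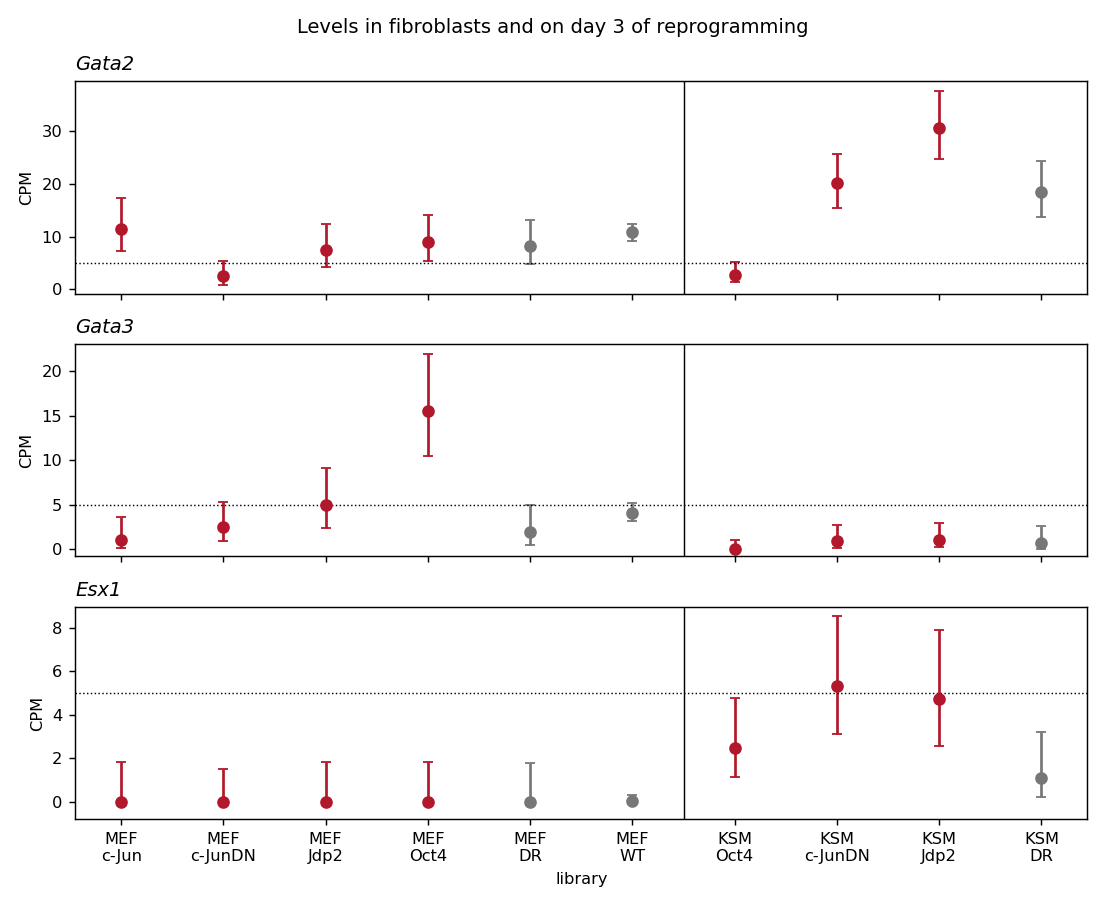
CPM of Gata2, Gata3 and Esx1 in the MEF libraries (left) and KSM libraries (right), with 95% counting intervals; red points carry an added factor, grey points are DR or WT, and the dotted line is the 5 CPM filter. Gata2 is low with c-JunDN in MEF (2.46 CPM) and with Oct4 in KSM (2.78 CPM), Gata3 is high with Oct4 in MEF (15.5 CPM), and Esx1 is at most 1 count in MEF and 5.34 CPM at most in KSM.

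The placental list went different ways outside ESC. Its counts here use the filter, so a gene near 0 in 1 library passes only if it is high in the other. With c-Jun in MEF, 10 of 19 measured placental genes were lower and 2 higher, with a median of -1.21, beside 9.54% lower and 7.75% higher of all measured genes. The fibroblast list summed to 19338.2 CPM in c-Jun MEF against 46911.1 CPM in DR MEF, with all 8 markers at 5 CPM or more in both, and its part in these changes was not tested. Tinagl1, a matrix protein gene, had 2 counts in c-Jun MEF, against 131 in DR MEF, and Cdh3, placental cadherin, was 11.8-fold lower, with 13.0 CPM in c-Jun MEF against 153.3 CPM in DR MEF. Plac8 had 7.50 CPM in c-Jun MEF against 81.7 CPM in DR MEF. Hsd3b6, a steroid dehydrogenase of giant cells, had 31.5 CPM in c-Jun MEF against 0.967 CPM in DR MEF (2 counts). With Oct4 in MEF, 8 of 18 measured placental genes were lower and 3 higher (median -0.45), beside 10.1% and 11.5% of 11036 measured genes. At a pseudocount of 5 or at 10 CPM, 5 were lower. Cdh3 had 5.99 CPM in Oct4 MEF against 153.3 CPM in DR MEF, and Plac8 had 4.99 CPM in Oct4 MEF against 81.7 CPM in DR MEF. Cited1 had 30.4 CPM in Oct4 MEF against 0 in DR MEF, and Plac9a had 42.9 CPM in Oct4 MEF against 5.80 CPM in DR MEF. With Oct4 in KSM, 8 of 17 measured placental genes were lower and 2 higher (median -0.51), beside 6.67% and 4.65% of 10750 measured genes. The lower count was 3 at a pseudocount of 5 and 4 at 10 CPM. Krt8 had 38.1 CPM in KSM with Oct4 against 514.6 CPM in KSM with DR (log2 -3.72), while Peg10, an imprinted retrotransposon-derived gene that the placenta needs, had 161.4 CPM in KSM with Oct4 against 18.0 CPM in KSM with DR (log2 3.09). Tinagl1 had 21.7 CPM in KSM with Oct4 against 102.0 CPM in KSM with DR. With Jdp2 in KSM, 8 of 19 were higher and 0 lower (median 0.13), beside 2.68% and 1.31% of 10763 measured genes. At a pseudocount of 5, 3 were higher. The 8 higher genes include Gjb2, a connexin, with 8.44 CPM in KSM with Jdp2 against 3 counts in KSM with DR (log2 2.17). Another was Cdh3, with 14.5 CPM in KSM with Jdp2 against 2.94 CPM in KSM with DR (log2 1.98). Nrk, a placental kinase gene, and Cited1 were the next, at log2 changes of 1.69 and 1.57. Gjb2 and Cdh3 passed the filter only through the Jdp2 library. Prl2c2, whose counts are uncertain, was also among the 8, with 12.8 CPM in KSM with Jdp2 against 5.52 CPM in KSM with DR.

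Over all 13 libraries, the order of levels had few clear steps. Gata2 was highest in induced ESC, then in KSM with Jdp2. From KSM with c-JunDN down to Jdp2 MEF, no library differed from the next one beyond its interval. Libraries further apart in that run could differ, as KSM with DR did from DR MEF (ratio 2.24, 1.27 to 4.14). For Gata3 induced ESC and Oct4 MEF formed the top, and no library below Jdp2 MEF differed from the next one beyond its interval. Within that run, WT MEF still stood above WT ESC (ratio 1.99, 1.22 to 3.35). For Tfap2c the 3 ESC libraries stood above all others, whose highest level was 1.69 CPM in KSM with Jdp2. For Esx1 induced ESC stood first, WT ESC second and the KSM libraries with uninduced ESC after them. Over the 12 libraries on 1 annotation, 4 of the genes reached 5 CPM in at least 2, and the genes whose log2(CPM + 1) followed them best among 11543 are a description with no test, since the libraries share cells and depth. Arhgap22 (r = 0.923), Igsf11 (0.894) and the keratin gene Krt19 (0.885) were most like Gata2. Gcnt1, Phka2 and Fxyd6 (0.913, 0.913 and 0.904) were most like Tfap2a, and Calcoco2, Sall1 and Rnf17 (0.990, 0.986 and 0.985) were most like Tfap2c. Wnt7b (0.942), Dennd3 (0.940) and Mobkl2b (0.939) were most like Esx1. Among the 4 genes themselves, r was 0.75 between Tfap2c and both Tfap2a and Esx1, 0.53 between Gata2 and Esx1, and 0.11 between Gata2 and Tfap2c.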

How the data were processed

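Per the labels' protocols, a Trizol method gave total RNA and an Illumina TruSeq RNA kit the libraries. RSEM 1.1.21 and mm9 are named in the submitters' processing notes; other steps are not given in the sources used here. The authors deposited RSEM expected counts per gene, which need not be whole and were rounded here. For 12 libraries they also deposited a fraction of transcripts per gene, scaled here to TPM, and for Oct4 MEF a TPM column on 27729 Ensembl IDs. That library shares 19660 names with the others, holding 96.82% of its counts, and was put on their scale through DR MEF.

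TMM factors came from edgeR 4.0.16 (R 4.3.3), and all other values from Python 3.11.15. Log2 changes use a pseudocount of 1 CPM, a filter of 5 CPM in 1 of the 2 libraries and a threshold of 2-fold. Ratios carry exact conditional binomial 95% intervals, and levels exact Poisson intervals. Genes at 0 on 1 side are given against a floor of 3 counts, and pairs with both sides at or below that floor get no ratio. The calls were tested on simulated data. The 10 genes, the lists and the rules were chosen with earlier results of these data known. Named genes are the 10, up to 4 genes of a list with the largest change, the introduced factors and the 3 genes most like each; Gata4, Hand2, Tcf3, Tcf4, Tcf12, Sox15, Nodal, Psg23, Plac9a, the genes at 0 counts in both ESC libraries and single markers were named after their values were seen. The peak lists of the series were not used here. One gene that the naming rule selects is not reported here.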

Additional observations from a re-analysis of the deposited data

How the results depend on the processing

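No paired analysis was possible because each group is 1 library. In induced against uninduced ESC the count of higher genes among the 10 was 6 or 7 and that of lower genes 0 under every alternative run. Of 128 recomputed changes of single genes, 125 shifted by less than the reach of their counting interval on the log2 scale and 0 called changes changed sign. A pseudocount of 5 lowered the induced ESC values of low genes, to log2 5.54 for Hand1, 3.87 for Esx1 and 3.02 for Plac1. Gata2 and Esx1 moved to log2 5.20 and 2.77 with WT ESC as the control, and Gata2 in WT MEF against WT ESC to 1.16 at a pseudocount of 5. Of 180 recomputed counts, 17 moved. At a pseudocount of 5 and at 10 CPM the counts fell to 0 for lower genes with c-JunDN in MEF, for higher genes with c-JunDN in KSM and for higher genes in uninduced against WT ESC. The last was also 0 on the TPM scale and 4 without a filter. For higher genes in KSM with DR against DR MEF, the count was 0 on the TPM scale and at a pseudocount of 5, and 2 without a filter. With Jdp2 in MEF, the higher count was 1 under total counts and 2 without a filter, where the lower count was 1. With Jdp2 in KSM it was 1 under total counts, on the TPM scale and without a filter. The alternatives for the lists were added after the data were seen, and 18 of 124 moved. In ESC the lower placental count was 1 under total counts, on the TPM scale and at a pseudocount of 5, and 0 at 10 CPM, and the higher count of relatives was 5 under total counts. With WT ESC as control, 6 transcription factors were higher, and 6 signalling genes and 4 relatives were lower. With Oct4 in MEF, 5 placental genes were lower at a pseudocount of 5 and at 10 CPM, and 6 were higher without a filter. Without a filter, 4 placental genes were higher with c-Jun in MEF and 1 was lower with Jdp2 in KSM. With Oct4 in KSM the placental counts were 1 higher and 3 lower at a pseudocount of 5, and 1 higher and 4 lower at 10 CPM, and with Jdp2 in KSM 3 were higher at a pseudocount of 5. The cause was not tested.

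Scaling shifted the median log2 change of all measured genes in induced against uninduced ESC from -0.07 to 0.13 with total counts and to 0.29 on the TPM scale, and it was 0.16 and 0.20 in Oct4 against DR MEF, 0.15 with total counts in KSM with DR against DR MEF, -0.28 on the TPM scale in uninduced against WT ESC and -0.47 with total counts in WT MEF against WT ESC. The comparison of peaks with start sites was not run, since no annotation of mm9 was used here. Levels under 0.835 to 1.50 CPM rest on fewer than 3 counts in the shallower libraries, and each group is 1 library.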
